A study of Mus musculus with 6 samples.

Results

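The interferon response and MHC class I genes examined here are 38 mouse genes listed by symbol, of which 37 were matched to a row among the 19940 genes of the authors' deposited table. The list was divided by known role into 28 antiviral genes (receptors, sensors, transcription factors and effectors of the interferon response) and 10 antigen presentation genes, of which 9 were matched. The gene without a match, Nlrc5, a transcriptional activator of class I genes, was not analysed here. RNA was sequenced from hand-picked pancreatic islets of C57BL6/J mice in 2 groups, pregnant at gestational day 14.5 and nonpregnant, the latter labelled as littermates, with 3 samples per group. No genetic change or drug is named for either group, and both were taken through the same enzyme digestion of the pancreas. The analysed table gives 1 mean read number per gene and group, so the spread between libraries is not seen and every adjusted p below is the authors' own.

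Interferons are secreted proteins that cells release when they sense viral RNA or DNA or, for interferon gamma, when T cells and natural killer cells are activated. Type I interferons bind the receptor pair of Ifnar1 and Ifnar2, and interferon gamma binds the pair of Ifngr1 and Ifngr2. The receptors activate STAT proteins, which together with interferon regulatory factors turn on effector genes and the class I pathway. In that pathway the proteasome cuts cytosolic proteins, the TAP transporter carries the peptides into the endoplasmic reticulum, and class I heavy chains with beta-2 microglobulin show them to CD8 T cells. In pancreatic islets this pathway is best known from type 1 diabetes, in which beta cells carry raised class I molecules.

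Of the 37 genes, 6 rose and 1 fell in pregnant islets at an adjusted p under 0.05, and 30 did not pass. Those that rose were the receptor chains Ifngr2 and Ifnar2, the effectors Oas1a, Ifi35 and Eif2ak2, and the peptide transporter subunit Tap2. The effector Ifi44 fell. The called share was 18.9%, against 11.7% of all genes and 14.8% of the 15682 genes with at least 10 mean reads over both groups, a minimum that all 37 met. By direction, 7.57% of all genes were called higher and 4.15% lower. An unadjusted p under 0.05 in the authors' deposited table was reached by 10 members and by 4418 of all 19940 genes. The log2 ratio of pregnant over nonpregnant was above 0 in 25 members (2 of which, H2-K1 and Oas2, changed sign when scaled to total reads) and below 0 in 12, with a median of 0.15 against -0.02 over all genes. Its size was under 0.5 in 32 of the 37. Summed over the members, the authors' mean reads made up 0.125% of all reads in pregnancy and 0.125% without it.

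**Figure D1:**
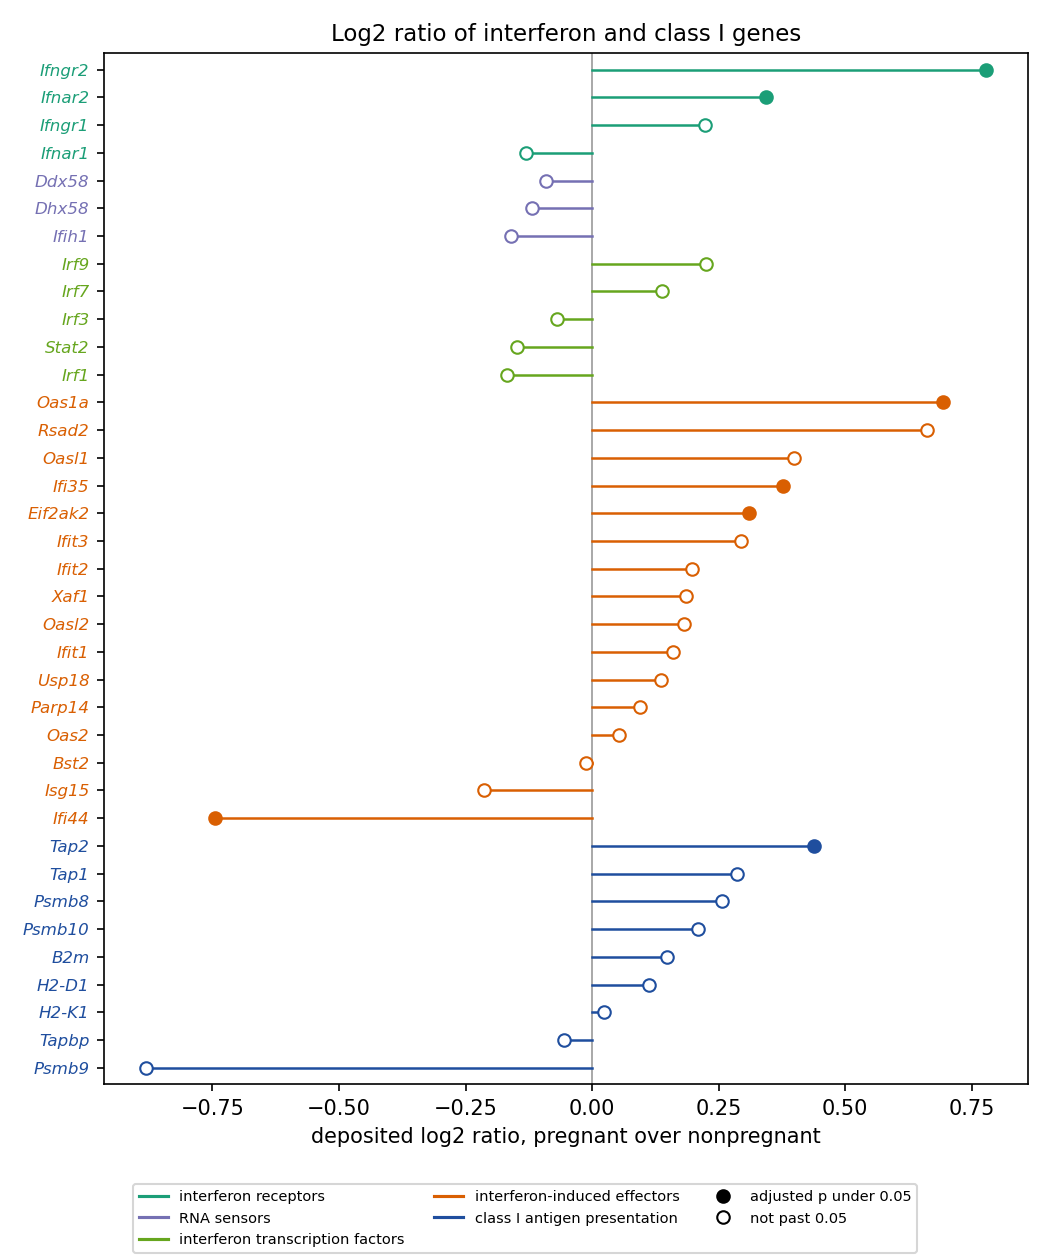
Deposited log2 ratio of mean reads, pregnant over nonpregnant islets (x axis), for the 37 genes (y axis), coloured by role; filled points have a deposited adjusted p under 0.05 and open points do not. The 7 filled points run from -0.74 (Ifi44) to 0.78 (Ifngr2), and 32 of the 37 points lie within 0.5 of 0.

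Both families moved by nearly the same median. The 28 antiviral genes had a median log2 ratio of 0.15, with 5 called higher, 1 lower and 22 not called in the authors' deposited table. The 9 antigen presentation genes also had a median of 0.15, with 1 called higher and 8 not called. The medians differed by 0.0005. Without the genes under 100 mean reads the antigen presentation median was 0.18, since Psmb9 was left out, and the antiviral median stayed at 0.15, a difference of -0.03. Scaled to total mean reads, both medians were 0.06. That scaling also moved the median of all genes with at least 10 mean reads, from -0.01 to -0.10. The share called was 21.4% of the antiviral genes and 11.1% of the antigen presentation genes, beside 14.8% of genes with like minimum reads. The 11.1% is 1 gene of 9, and the difference in shares was not tested. Within the antiviral family the medians by role were 0.28 for the 4 receptor chains, -0.12 for the 3 RNA sensors, -0.07 for the 5 transcription factors and 0.18 for the 16 effectors.

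**Figure D2:**
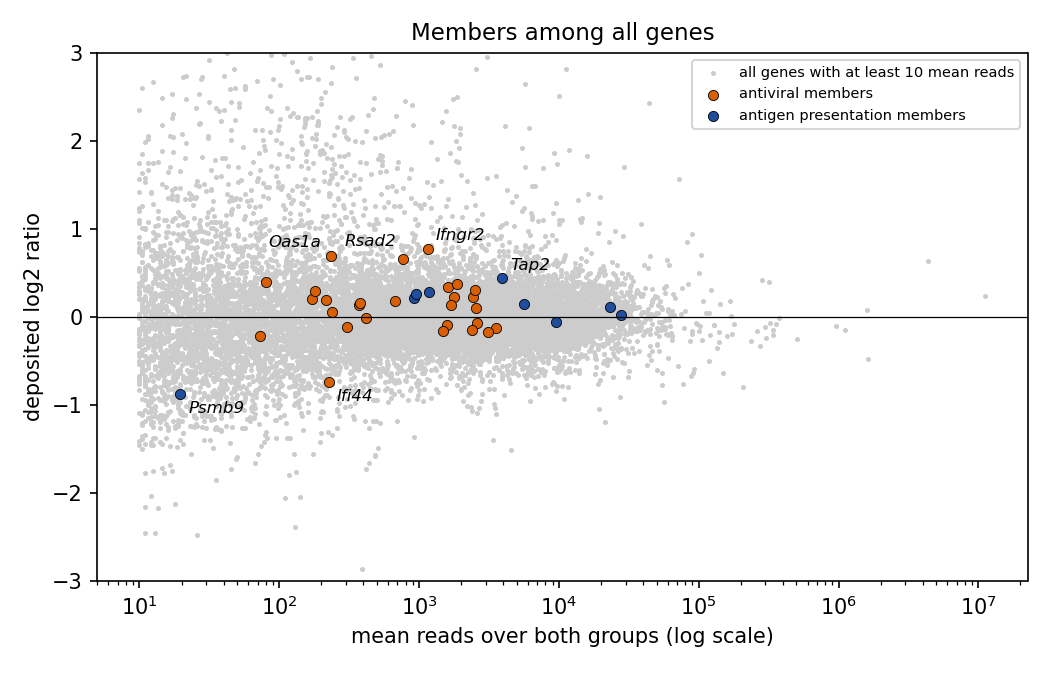
Deposited log2 ratio (y axis) against mean reads over both groups (x axis, log scale) for the genes with at least 10 mean reads (grey) and for the antiviral and antigen presentation members (coloured); 121 genes with ratios beyond 3 in size are outside the drawn range. The members lie in the main band of genes at each read level, with Ifngr2, Oas1a and Rsad2 at its upper side and Ifi44 at its lower side.

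The promoters of several of these genes carry the interferon-stimulated response element, the DNA sequence read by the complex that holds Stat2 and Irf9 and by other interferon regulatory factors. Its core was searched as GAAANNGAAA on both strands of RefSeq promoter windows on GRCm38.p6, which run from 250 bases before to 50 bases after the annotated start and were found for 32 of the 37 genes. A match stood in 11 of the 32 (34.4%) and in 3.99% of 27025 genes with a window. Of the 24 antiviral genes with a window 10 had a match, and of the 8 antigen presentation genes B2m had one. The stretches below come from some of the genes with a match, and their log2 ratios run from -0.21 (Isg15) to 0.69 (Oas1a). Eif2ak2, Ddx58 and Ifih1, whose matches lie just after the start, are among those not printed. Each is written 5′ to 3′ on the gene's strand with the matched bases in capitals, and a match on the opposite strand appears as its reverse complement. Isg15 lies on the minus strand at chr4:156200860-156200911, Ifit1 on the plus strand at chr19:34640770-34640828 and Rsad2 on the minus strand at chr12:26456548-26456587. Oas1a lies on the minus strand at chr5:120907526-120907560, Bst2 on the minus strand at chr8:71537572-71537617 and B2m on the plus strand at chr2:122147533-122147572.
Isg15: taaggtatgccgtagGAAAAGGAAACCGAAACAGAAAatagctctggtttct
Ifit1: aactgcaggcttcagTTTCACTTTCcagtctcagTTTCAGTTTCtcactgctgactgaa
Rsad2: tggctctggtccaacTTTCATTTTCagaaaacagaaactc
Oas1a: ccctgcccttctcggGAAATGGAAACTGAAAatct
Bst2: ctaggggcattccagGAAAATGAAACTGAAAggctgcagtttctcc
B2m: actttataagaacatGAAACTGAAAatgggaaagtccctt
The Isg15 stretch holds 3 overlapping matches, which begin 78, 72 and 66 bases before the start. Oas1a and Bst2 hold 2 overlapping matches each, Ifit1 holds 2 separate ones, and Rsad2 and B2m hold 1 each.

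Of these 6 genes with the motif in print, only Oas1a passed the authors' test. Over all 11 genes with a match, 2 were called higher (Oas1a and Eif2ak2) and none lower, with a median log2 ratio of 0.15. Among the 21 without a match, 3 were called higher and 1 lower, with a median of 0.19. A second motif, the gamma-activated site, was searched as TTCNNNGAA, which reads the same on both strands. It stood in 9 of the 32 windows (28.1%), against 9.55% of all genes with a window. Of those 9 genes 4 were called higher and none lower, with a median log2 ratio of 0.26. Of the 23 without it, 1 was called higher and 1 lower, with a median of 0.15. These counts are to be read beside the 7.57% of all genes called higher and 4.15% called lower. Of the 15682 genes with at least 10 mean reads, a minimum that all members met, 1496 were called higher and 827 lower. The called share among all genes with either motif was not worked out, and the difference between members with and without either motif was not tested. A match is a string of letters and does not show that a factor bound there in these islets.

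**Figure D3:**
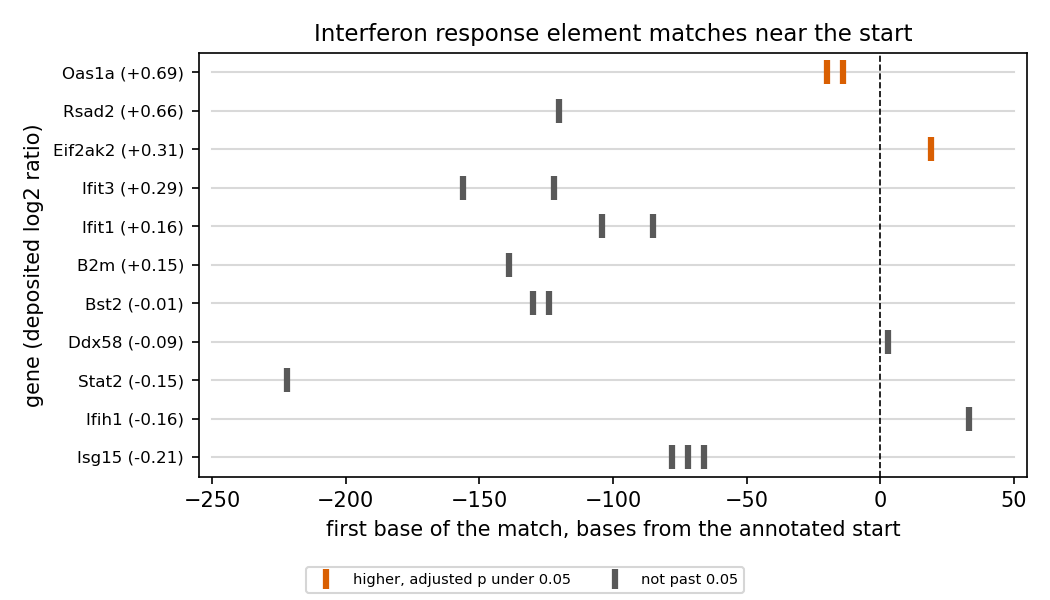
First base of each interferon response element match (ticks) relative to the annotated start (dashed line, x axis in bases) for the 11 genes with a match, ordered by deposited log2 ratio (in parentheses); orange marks genes called higher. Matches run from 222 bases before the start (Stat2) to the bases just after it. The called genes Oas1a and Eif2ak2 hold theirs near the start, as do Ddx58 and Ifih1, which were not called.

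The receptor chains held the member with the smallest adjusted p. Ifngr2, the signalling chain of the interferon gamma receptor (ENSMUSG00000022965, chr16:91547072-91565623, plus strand, GRCm38), had an authors' mean of 1439 reads in pregnant and 860 reads in nonpregnant islets. Its deposited fold was 1.71, a log2 ratio of 0.78, with an adjusted p of 2.64e-08 in the authors' deposited table. An approximate standard error of 0.12 on the log2 scale was worked out from that ratio and its p. Ifnar2, the chain that binds type I interferon with high affinity (ENSMUSG00000022971, chr16:91372783-91405589, plus strand), rose from 1442 to 1787 mean reads. In the authors' deposited table its log2 ratio was 0.34 and its adjusted p was 0.0329. The partner chains did not pass. Ifngr1, which binds interferon gamma, had authors' means of 1887 reads in pregnant and 1656 in nonpregnant islets (log2 ratio 0.22, adjusted p = 0.239 by the authors' deposited table). Ifnar1, the low-affinity type I chain, had authors' means of 3329 and 3737 reads (log2 ratio -0.13, adjusted p = 0.57 in the authors' deposited table). Thus within each receptor 1 chain was called higher and its partner was not, and the difference between partners was not tested. In RPKM, here the authors' means divided by exon length and by the summed mean reads of the group, Ifngr1 stood at 7.56 in pregnant and 6.88 in nonpregnant islets and Ifngr2 at 4.36 and 2.70, so the mean level of Ifngr2 was the lower of the pair in both groups.

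Of the 4 receptor chains, 3 are neighbours on mouse chromosome 16, within 192.8 kb at chr16:91372783-91565623, in the order Ifnar2, Il10rb, Ifnar1, Ifngr2. Il10rb, a receptor chain shared by interleukin 10 and type III interferons, had authors' means of 1026 and 1008 reads (log2 ratio 0.06, adjusted p = 0.922 by the authors' deposited table). The called genes Ifnar2 and Ifngr2 were thus separated by Il10rb and Ifnar1, which did not pass the authors' test. Tmem50b, the next gene after Ifngr2, rose from 6282 to 8316 mean reads in the authors' deposited table (log2 ratio 0.44, adjusted p = 5.98e-04). Farther along, Dnajc28, Gart, Son and Donson were not called (log2 ratios 0.279, -0.115, -0.384 and -0.067 in the authors' deposited table). An exon of Ifnar2 overlaps the annotated gene Gm21970 on the same strand, so reads could belong to either, while no exon of another annotated gene overlaps Ifngr2.

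The RNA sensors, helicases that bind viral RNA in the cytosol, all had lower means in pregnant islets and none passed, nor did any reach an unadjusted p under 0.05. Ddx58, which encodes RIG-I, had authors' means of 1513 reads in pregnant and 1651 in nonpregnant islets (log2 ratio -0.09, adjusted p = 0.807 in the authors' deposited table). Ifih1, which encodes MDA5, had authors' means of 1376 and 1577 (log2 ratio -0.16, adjusted p = 0.608 by the authors' deposited table). Dhx58, which encodes their regulator LGP2, had authors' means of 289 and 322 (log2 ratio -0.12, adjusted p = 0.845 in the authors' deposited table).

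None of the 5 transcription factors passed either. Stat2, the STAT protein specific to type I and III interferon signalling, had authors' means of 2219 reads in pregnant and 2524 in nonpregnant islets (log2 ratio -0.15, adjusted p = 0.749 by the authors' deposited table). Irf9, the DNA-binding partner of Stat2, had authors' means of 2584 and 2268 (log2 ratio 0.22, adjusted p = 0.215 in the authors' deposited table). Irf9 was the single factor with an unadjusted p under 0.05 in the authors' deposited table, at 0.0463, and its exons overlap those of Rnf31 on the same strand. Irf1, a factor downstream of interferon gamma, had authors' means of 2869 and 3308 (log2 ratio -0.17, adjusted p = 0.437 by the authors' deposited table). Irf3, which is activated directly by the sensing pathways, had authors' means of 2498 and 2687 (log2 ratio -0.07, adjusted p = 0.859 in the authors' deposited table). Irf7, which is itself induced by interferon and amplifies the response, had authors' means of 386 and 359 (log2 ratio 0.14, adjusted p = 0.769 by the authors' deposited table). The signs were mixed, with 2 of the 5 above 0.

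Among the 16 effectors, 3 rose, 1 fell and 12 did not pass. Oas1a, an enzyme that makes the messenger for RNase L when it binds double-stranded RNA (ENSMUSG00000052776, chr5:120896256-120907521, minus strand), went from 181 to 287 mean reads. In the authors' deposited table its fold was 1.62, its log2 ratio 0.69 and its adjusted p 0.00444, and the approximate standard error of the log2 ratio was 0.19. Its relatives among the members were not called. Oas2 had authors' means of 239 reads in pregnant and 236 in nonpregnant islets (log2 ratio 0.05, adjusted p = 0.997 in the authors' deposited table). Oasl1, which restrains Irf7 translation, had authors' means of 90 and 70 (log2 ratio 0.40, adjusted p = 0.633 by the authors' deposited table). Oasl2 had authors' means of 704 and 637 (log2 ratio 0.18, adjusted p = 0.526 in the authors' deposited table). All 4 members of this family had a ratio above 0, though Oas2 fell below 0 when reads were scaled to their totals. Outside the members, Oas1b, Oas1c, Oas1g and Oas3 were not called either (log2 ratios 0.099, 0.214, 0.398 and 0.075 in the authors' deposited table). Whether Oas1a differs from its relatives was not tested.

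Ifi35, an interferon-induced leucine zipper protein (ENSMUSG00000010358, chr11:101448407-101458698, plus strand), rose from 1647 to 2088 mean reads in the authors' deposited table (log2 ratio 0.38, adjusted p = 0.0135). Eif2ak2, the kinase PKR that halts translation on double-stranded RNA (ENSMUSG00000024079, chr17:78852564-78882573, minus strand), rose from 2278 to 2755 mean reads. Its log2 ratio was 0.31, with an adjusted p of 0.0481 in the authors' deposited table, just inside the threshold. Exons of both genes overlap annotated transcripts on the opposite strand, and the strand setting of the counting was not stated in the labels. Ifi44, an interferon-induced cytosolic protein (ENSMUSG00000028037, chr3:151730922-151749960, minus strand), fell from 285 to 165 mean reads. Its deposited fold was 0.60, a log2 ratio of -0.74 with an approximate standard error of 0.25, and its adjusted p was 0.033 in the authors' deposited table. Ifi44 and Oas1a, both interferon-induced, therefore moved in opposite directions.

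Several well known targets of type I interferon did not pass. Rsad2, which encodes the antiviral enzyme viperin, had authors' means of 933 reads in pregnant and 605 in nonpregnant islets, a deposited fold of 1.58 and a log2 ratio of 0.66. That fold was close to the one of Oas1a at several times its reads, yet the adjusted p in the authors' deposited table was 0.436. The approximate standard error of its log2 ratio was 0.45, against a median of 0.14 over genes of like reads. Isg15, a ubiquitin-like modifier, had authors' means of 66 and 79 (log2 ratio -0.21, adjusted p = 0.842 by the authors' deposited table). Usp18, which removes Isg15 from proteins and damps receptor signalling, had authors' means of 1764 and 1645 (log2 ratio 0.14, adjusted p = 0.83 in the authors' deposited table). The modifier and its protease therefore had ratios of opposite sign, neither past the threshold.

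The Ifit genes encode proteins that bind foreign RNA ends and lie together on chromosome 19. Ifit1 had authors' means of 395 reads in pregnant and 363 in nonpregnant islets (log2 ratio 0.16, adjusted p = 0.849 by the authors' deposited table). Ifit2 had authors' means of 181 and 161 (log2 ratio 0.20, adjusted p = 0.813), and Ifit3 had authors' means of 197 and 165 (log2 ratio 0.29, adjusted p = 0.744 in the authors' deposited table). All 3 were slightly above 0 and none passed. Bst2, which encodes tetherin and holds budding virus particles at the membrane, had authors' means of 413 and 426 (log2 ratio -0.01, adjusted p = 1 by the authors' deposited table). Xaf1, a pro-apoptotic interferon target, had authors' means of 226 and 203 (log2 ratio 0.19, adjusted p = 0.718 in the authors' deposited table). Parp14, an ADP-ribosyltransferase, had authors' means of 2588 and 2484 (log2 ratio 0.09, adjusted p = 0.766 by the authors' deposited table). These 3 lay within 0.2 of 0 on the log2 scale.

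**Figure D4:**
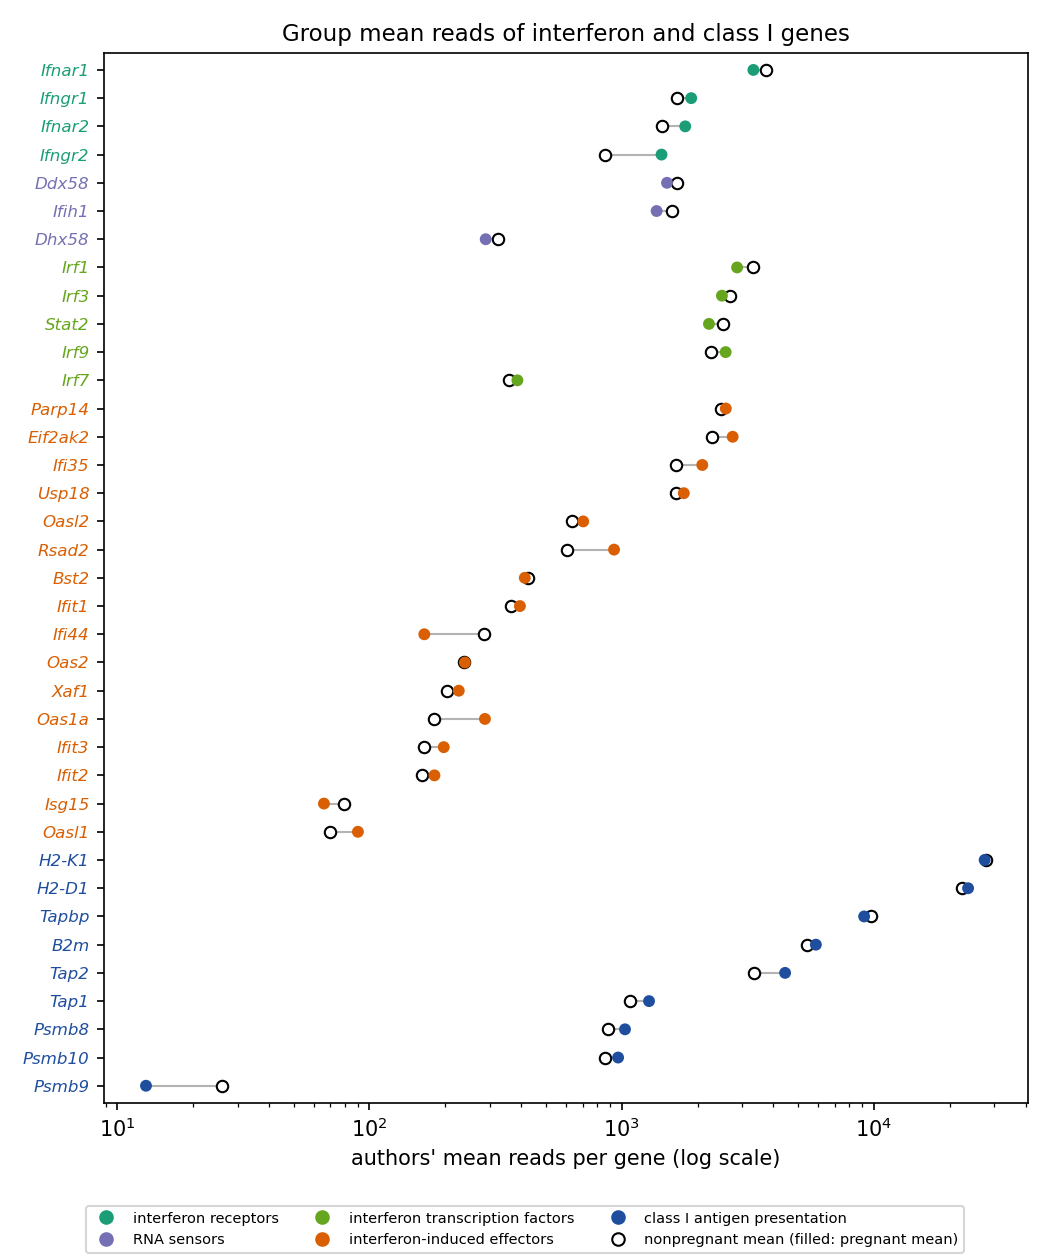
Authors' mean reads per gene (x axis, log scale) in nonpregnant (open) and pregnant (filled, coloured by role) islets for each of the 37 genes (y axis). The widest gaps are those of Psmb9 (13 against 26 reads), Ifi44, Ifngr2, Oas1a and Rsad2, and the class I heavy chains nearly coincide.

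The class I molecule itself was abundant and nearly equal between the groups. H2-K1, a class I heavy chain, had authors' means of 27494 reads in pregnant and 27721 in nonpregnant islets (log2 ratio 0.02, adjusted p = 0.98 in the authors' deposited table). Its ratio is above 0 although the pregnant mean is the lower, since the deposited log2 ratios exceed those of the printed means by a median of 0.04. H2-D1, the other classical heavy chain of this strain, had authors' means of 23639 and 22412 (log2 ratio 0.11, adjusted p = 0.629 by the authors' deposited table). The coding sequences of these chains are much alike, so how reads were divided between them is uncertain. B2m, the shared light chain, had authors' means of 5889 and 5444 (log2 ratio 0.15, adjusted p = 0.465 in the authors' deposited table). In RPKM, H2-K1 stood at 107 in pregnant and 112 in nonpregnant islets, H2-D1 at 105 and 103, and B2m at 78.1 and 74.9.

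Tap2, a subunit of the transporter that brings peptides to class I (ENSMUSG00000024339, chr17:34203527-34216321, plus strand), was the single antigen presentation gene that rose. Its authors' mean went from 3361 to 4447 reads, a deposited fold of 1.36 and a log2 ratio of 0.44, with an adjusted p of 0.00105 in the authors' deposited table. Tap1, its partner subunit, had authors' means of 1284 reads in pregnant and 1079 in nonpregnant islets (log2 ratio 0.29, adjusted p = 0.122 by the authors' deposited table). In RPKM, Tap2 stood at 13.4 and 10.5 and Tap1 at 2.68 and 2.33, so by this measure Tap1 was the lower of the pair in both groups. The size of that gap depends on the merged exon lengths, 3781 bases for Tap2 and 5476 for Tap1. Exons of Tap1 overlap Psmb9 on the opposite strand, and the strand setting of the counting was not stated in the labels. Exons of Tap2 overlap Gm20496 and Gm15821 on the opposite strand, so part of its reads could come from those transcripts. Tapbp, which encodes tapasin and bridges the transporter and the heavy chain, had authors' means of 9151 and 9754 (log2 ratio -0.06, adjusted p = 0.893 in the authors' deposited table).

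The immunoproteasome subunits replace the constitutive catalytic subunits when interferon gamma acts. Psmb8 had authors' means of 1031 reads in pregnant and 885 in nonpregnant islets (log2 ratio 0.26, adjusted p = 0.217, unadjusted p = 0.047 by the authors' deposited table). Psmb10 had authors' means of 968 and 858 (log2 ratio 0.21, adjusted p = 0.476 in the authors' deposited table). Psmb9 was listed at 13 and 26 mean reads (log2 ratio -0.88, adjusted p = 0.39 by the authors' deposited table). The gene identifier of that Psmb9 row, ENSMUSG00000024337, is not in the GENCODE M21 annotation, where Psmb9 carries another identifier, so what its reads cover could not be checked. Of the constitutive partners, Psmb7 rose from 4843 to 5840 mean reads in the authors' deposited table (log2 ratio 0.31, adjusted p = 0.0363). Psmb5 and Psmb6 had log2 ratios of 0.23 and 0.22 that did not pass. Per kb of exon, Psmb8 stood at 6.64% of the level of Psmb5 in pregnant and 6.50% in nonpregnant islets. Psmb10 stood at 33.3% and 35.5% of Psmb7. The lengths merge all annotated exons, at 3381 bases for Psmb8 against 899 for Psmb5 and 1705 for Psmb10 against 3421 for Psmb7. The size of these percentages depends on those lengths, so the 2 pairs are not compared with each other. Both exchange ratios were therefore similar in the 2 groups.

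**Figure D5:**
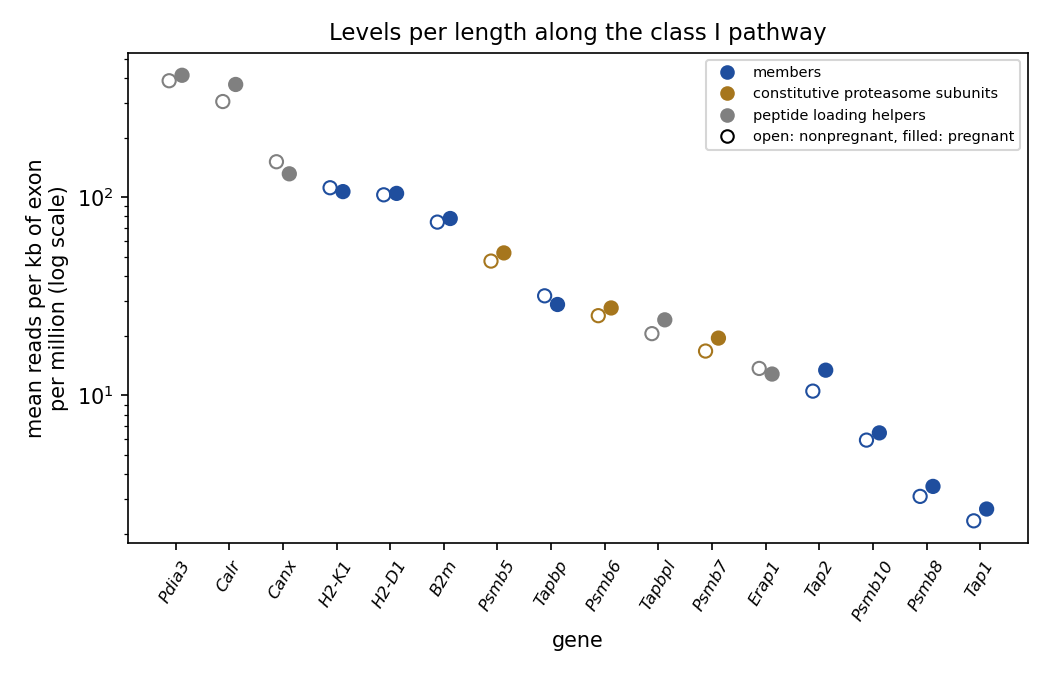
Level per length in RPKM (y axis, log scale) for class I pathway members (blue), constitutive proteasome subunits (brown) and peptide loading helpers (grey), ordered along the x axis by the nonpregnant level; open points are nonpregnant and filled points pregnant means. H2-K1, H2-D1 and B2m lie near 100, Tap1 near 2.5, and the open and filled points of each gene are close together.

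Other genes of the same pathways are given by list, to be read beside the 11.7% of all genes called. Among 57 further interferon-stimulated genes, 2 were called higher and 2 lower in the authors' deposited table (7.02% called), with a median log2 ratio of 0.01. Ddx60, a helicase that assists RNA sensing, rose in the authors' deposited table from 731 to 944 mean reads (log2 ratio 0.41), and Lgals3bp, a secreted glycoprotein, rose from 32804 to 39682 (log2 ratio 0.31). Helz2, a nuclear receptor coactivator with helicase domains, fell in the authors' deposited table from 3752 to 2814 (log2 ratio -0.38), and Rnf213, a ubiquitin ligase, fell from 8388 to 6523 (log2 ratio -0.33). Of 23 signalling and sensing genes matched, the phosphatase gene Ptpn6 rose in the authors' deposited table from 3340 to 4062 mean reads (log2 ratio 0.32) and the other 22 did not pass (4.35% called). Of the interferon ligands, 4 of 21 listed were matched, each with at most 3 mean reads in either group. Among 20 further class I heavy chain genes, H2-Q10, a secreted class I molecule, fell in the authors' deposited table from 280 to 167 mean reads (log2 ratio -0.70) and 19 did not pass (5.00% called). Of the 13 entries for peptide loading and trimming helpers 2 were called (15.4%): the chaperone gene Calr rose in the authors' deposited table from 73955 to 93550 mean reads (log2 ratio 0.37) and the tapasin relative Tapbpl from 4076 to 4964 (log2 ratio 0.32). None of 9 class II genes passed or reached an unadjusted p under 0.05 in the authors' deposited table, with a median log2 ratio of 0.06.

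The endocrine markers of islets were abundant, with 10 genes holding 24.9% of the authors' mean reads in pregnant and 22.7% in nonpregnant islets. Of these 10, Ins1, an insulin gene, rose from 3449821 to 5230668 mean reads in the authors' deposited table (log2 ratio 0.64) and 9 did not pass. The log2 ratio was above 0 in 5 of the 10 and below 0 in 5, with a median of -0.0165. Gcg had authors' means of 1337190 reads in pregnant and 1910194 in nonpregnant islets (log2 ratio -0.48, adjusted p = 0.0772 in the authors' deposited table). Because interferon and class I genes are active in immune and vascular cells too, markers of other cell types were set beside them. The 17 macrophage and leukocyte markers matched summed to 6231 mean reads in pregnant and 5716 in nonpregnant islets, with 1 called higher (Lyz2, 841 against 654 reads, log2 ratio 0.40) and none lower. Their median log2 ratio was 0.13, near the 0.15 of the interferon and class I genes, with 11 above 0 and 6 below. An unadjusted p under 0.05 in the authors' deposited table was reached by 4 of the 17, and by 4418 of all 19940 genes. Of these 4 markers, Lyz2, Itgam (66 against 39 reads) and Mrc1 (123 against 72) had higher pregnant means and Nkg7 (1 against 7) a lower one. Ptprc, the pan-leukocyte marker, had a deposited fold of 0.91, and Cd3e and Cd8a of T cells had at most 8 mean reads in either group. None of 8 endothelial and none of 7 fibroblast markers was called or reached an unadjusted p under 0.05, with median log2 ratios of -0.06 and -0.57. Of 6 duct markers Muc1, a mucin gene, rose from 129 to 333 mean reads in the authors' deposited table (deposited fold 2.64) and 5 did not pass, with a list median of 0.30. Of 25 acinar markers 22 were called higher, those with the smallest p being the digestive enzyme genes Try4, Prss1, Try5, Pnliprp2 and Clps at deposited folds of 12.78 to 23.37. The 25 together held 1.65% of mean reads in pregnant and 0.132% in nonpregnant islets. The part of these cell types in the differences above was not tested. In bulk islets fewer cells of a type and less RNA per cell cannot be told apart.

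At the stricter adjusted p under 0.01, 3 members passed (Ifngr2, Oas1a and Tap2), a share to be read beside 7.31% of all genes. The log2 ratios hold for the authors' own scaling. Scaled to total mean reads, the median of genes with at least 10 reads moved by -0.09, H2-K1 and Oas2 changed sign, and none of the 7 called genes did.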

How the data were processed

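Islet RNA reads of 3 samples from pregnant and 3 from nonpregnant mice were processed on GRCm38 with HTSeq 0.5.3p3, Bowtie, TopHat and TopHat2 2.0.12, per the submitters' processing notes. The strand setting, any scaling before averaging and the test used are not given in the sources used here. The authors deposited a mean read number per gene and group, with no value per library, and the series' design names 5 animals a group. The labels do not say that each sample came from its own animal, so the authors' p-values may measure technical spread. Beside the means the authors deposited a fold (a linear ratio of pregnant over nonpregnant), its log2, a p-value and an adjusted p-value (FDR), per the file headers. A gene is called at a deposited adjusted p under 0.05. For low genes the deposited log2 ratio carries a pseudocount of 1 and understates changes. Mean reads summed to 87654449 (pregnant) and 84493872 (nonpregnant); depth per library was not analysed here, so no error between samples is given.

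Of 19963 lines, 19940 genes were kept once each; 21 stood on more than 1 line. Identifiers of 36 members were matched to GENCODE M21 for positions, exon overlaps and the exon lengths behind RPKM. The approximate standard error of a log2 ratio is its size divided by the normal deviate of its deposited p. It was added after seeing the data, for genes with at least 100 mean reads and p up to 0.5, and set beside genes within 1.5-fold of the same reads. Motifs were searched in the RefSeq promoter table. All members were named, and from each other list up to 5 genes with the smallest p among those called, with some cell type markers. Psmb5, Psmb6, Il10rb, Tmem50b, Dnajc28, Gart, Son, Donson, Oas1b, Oas1c, Oas1g and Oas3 stand outside this rule and were named after their values were seen. The members and lists were chosen with earlier results of these data known. Benjamini-Hochberg code was tested on simulated data. Alternatives were another threshold, read minimum, scaling and pseudocount. Calculations ran in Python 3.11.15 (numpy 2.4.6, scipy 1.17.1, pandas 2.3.3).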

Additional observations from a re-analysis of the deposited data

How the results depend on the processing

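The count of 7 called members became 3 at an adjusted p under 0.01 and 3 when a log2 ratio of at least 0.5 in size was also required. It stayed at 7 at an adjusted p under 0.1 and with Benjamini-Hochberg adjustment over genes with at least 10 mean reads. The count of 9 called genes in the other pathway lists (cell type markers not included) became 2 at an adjusted p under 0.01 and 12 at 0.1. Those lists held 57, 23, 4, 20, 13, 3 and 9 matched entries. Both sets of counts are to be read beside 11.7% of all genes called at 0.05 and 7.31% at 0.01. The shares of all genes at 0.1 and with the limit on size were not worked out. With members of at least 100 mean reads only, the antiviral minus antigen presentation difference of medians was -0.0305, against 0.0005 over all matched members, because Psmb9 drops out; Isg15 and Oasl1 drop out too, and the antiviral median stayed at 0.1485. Scaling to total mean reads gave family medians of 0.06 and 0.06, scaling without acinar genes 0.08 and 0.08, and a pseudocount of 5 gave 0.11 and 0.11. The median of all genes with at least 10 mean reads was -0.10, -0.08 and -0.05 in turn, against -0.01 as deposited. H2-K1 changed sign under all 3 of these settings and Oas2 under both scalings, and no called member did. Leaving out each replicate was planned and not run, since the analysed means hold no value per library. No paired analysis was possible because the analysed columns are group means that carry no replicate numbers. Depth limits Psmb9, Isg15 and Oasl1, each under 100 mean reads, most. How far any call rests on 1 library was not tested.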

Other observations

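The approximate standard error of the log2 ratio, worked out from the authors' deposited ratio and p, was near that of genes with like reads for most members: the median quotient over the 28 members with a value was 0.99, and 23 lay under 1.2. It was at least 1.4 times the typical value in 4 members, and the share of all genes at that level was not worked out. The 4 members were Rsad2 (0.45 against 0.14), Usp18 (0.19 against 0.12), Stat2 (0.17 against 0.11) and Ifit3 (0.33 against 0.23). For Rsad2, 99.2% of the 1332 genes of like reads had a smaller value. For Usp18, Stat2 and Ifit3 the share of genes of like reads with a smaller value was 93.1%, 92.1% and 85.1%. These genes, and the ones that follow, were singled out after their values were seen. Among the 25 further interferon-stimulated genes with a value, Cxcl10, a chemokine induced by interferon gamma, stood farthest out, with 1.12 against 0.23. Its authors' means were 266 reads in pregnant and 81 in nonpregnant islets, a deposited fold of 3.37 with an adjusted p of 0.387 in the authors' deposited table. Socs3, an inhibitor of cytokine receptor signalling, had authors' means of 4319 and 7018 (log2 ratio -0.66, adjusted p = 0.32 in the authors' deposited table). Its approximate standard error was 0.38, which was not set beside genes of like reads. Where the error exceeds that of genes with like reads, the p in the authors' test was weaker than is typical for a ratio of that size. Which libraries differ cannot be seen in group means.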
